A study of Mus musculus with 25 samples.

Results

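Gene families that make, break down and act on cyclic AMP were described in cultured neonatal mouse cardiac myocytes. They were chosen by symbol as the adenylyl cyclases (Adcy and a number), the cyclic nucleotide phosphodiesterases (Pde, a number and a letter), the regulatory and catalytic subunits of protein kinase A (Prkar and Prkac) and the A-kinase anchoring proteins (Akap). Pde4dip, whose symbol also starts with Pde, encodes myomegalin, a centrosome and Golgi scaffold, and was placed with the anchors. This gave 55 of the 19938 genes that a probe set named alone. There were 10 cyclases, 24 phosphodiesterases, 4 regulatory subunits, 1 catalytic subunit and 16 anchors. A mean log2 intensity of 6 or more over the 25 arrays was reached by 34 members (7 cyclases, 10 phosphodiesterases, 4 regulatory subunits, 1 catalytic subunit and 12 anchors), called well expressed below, and not by the other 21, called dim. Closest above this level were Pde8a at 6.00, Adcy4 at 6.16 and Pde4b at 6.24, and closest below it were Pde3b at 5.95, Pde5a at 5.75 and Pde1c at 5.67. Prkaca, the main catalytic subunit, and Akap2 share their probe sets with Samd1 and Pakap and were left out.

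TG myocytes came from transgenic mice in which the mlc2v promoter, active in cardiac myocytes, drives CHF1/Hey2, and WT myocytes came from mice without the transgene. Both were kept in serum-free medium, and part of the cultures then received 20% fetal bovine serum, a hypertrophic stimulus, for 24 h. The study measured cell size at a later time, when serum had enlarged WT but not TG myocytes. There were 6 TG and 5 WT cultures without serum and 7 TG and 7 WT cultures with serum, each hybridized to 1 array. The study's methods count them as independent cultures and check their purity by staining for sarcomeric myosin. Litters are named in neither the methods nor the labels, and a p therefore covers only the variation from one of these cultures to the next.

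Adenylyl cyclases convert ATP to cyclic AMP, most of them when Gs-coupled receptors such as the β-adrenergic receptors are occupied. Many phosphodiesterases hydrolyze this messenger, but some members, such as Pde5a, act on cyclic GMP, and Pde6d encodes no enzyme. Protein kinase A, a pair of catalytic subunits held inactive by a dimer of regulatory subunits, is released by cyclic AMP. Anchoring proteins hold the kinase, often together with a phosphodiesterase, at the calcium channels, the sarcoplasmic reticulum, the mitochondria and the nuclear envelope of the myocyte, where it governs contraction rate and force.

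Hey2 itself had a log2 intensity of 7.81 ± 0.62 (SD, n = 6) in TG and 6.23 ± 0.11 (n = 5) in WT cultures without serum, and of 8.71 ± 0.53 (n = 7) and 6.89 ± 0.25 (n = 7) with serum. Arrays with and without serum stood on different scales. Their medians were 5.21 to 5.36 and 4.99 to 5.09, their SDs over probe sets 2.54 to 2.60 and 2.10 to 2.14. Any pair of arrays without serum held exactly the same value in 2.78% to 4.47% of probe sets, a pair with serum in 0.0619% at most, and a pair across the sets in 0.00281% at most. TG and WT were therefore compared within each set, and serum and set cannot be told apart. In 6 cultures (TG no serum replicates 4 and 5, WT no serum replicate 2, TG serum replicate 6 and WT serum replicates 3 and 4) the mean of 15 myocyte markers was 0.35 to 0.76 below the mean of their set, and in the other 19 cultures it lay between -0.16 and 0.43 of it. In bulk RNA, fewer myocytes and less RNA per myocyte cannot be told apart.

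The sequences below are shown because they hold the letters that the regulators named here are known to bind, the E-box forms for the Hey family of repressors and the cyclic AMP response element for CREB. Promoters were taken from RefSeq (GRCm38.p6) as the 250 bases before each start site, which 45 of the 55 members had, and were searched on both strands. The letters CACGTG stood in the promoters of 7 of these 45 members (Adcy1, Akap7, Akap10, Akap11, Prkar1a, Prkar1b and Prkar2b) and of 6.86% of all 27025 genes. CACGCG, or CGCGTG on the other strand, stood in 9 (Adcy3, Adcy9, Adcy10, Akap1, Akap5, Akap8, Pde1b, Prkacb and Prkar2a) and in 8.65% of all genes. The full element TGACGTCA stood in 1 member, Prkar1a, and in 1.77% of all genes. Akap7 and Adcy3 are printed because they had the smallest p among the members without serum, the first with CACGTG in the 250 bases before the inner of its 2 listed start sites (chr10:25200150-25200399, minus strand), which lies inside the span of the longer transcript. For Adcy3 the 30 bases that end with CGCGTG and 1 more base before one of its 2 listed start sites are given (chr12:4133367-4133396, plus strand), since RefSeq starts the gene farther upstream. Of Prkar1a only the element and 11 bases on either side are given (chr11:109650889-109650918, plus strand). They too lie inside the span of the gene, which RefSeq starts farther upstream, and the CACGTG of Prkar1a stood before another listed start site. Capitals mark the matching letters, which are a description and no evidence of binding.
Akap7: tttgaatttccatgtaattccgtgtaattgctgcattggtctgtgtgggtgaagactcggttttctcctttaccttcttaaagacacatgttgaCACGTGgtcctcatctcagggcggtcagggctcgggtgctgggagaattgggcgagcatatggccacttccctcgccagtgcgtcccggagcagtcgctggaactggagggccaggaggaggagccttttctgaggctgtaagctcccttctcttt
Adcy3: cgcccgcctcctggggcctgcggCGCGTGt
Prkar1a: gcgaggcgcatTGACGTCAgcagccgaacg

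The first question was whether extra CHF1/Hey2 changed these genes in unstimulated myocytes. None of the 55 members passed the adjusted test. In limma, 0 of the 35557 probe sets (0% of them) had an adjusted p under 0.05. At an unadjusted p under 0.05 stood 2 of the 34 well expressed members, Akap7 and Adcy3, against 4.86% of all well expressed genes, and 0 of the 21 dim members, against 3.98% of dim genes. Of the well expressed members 23 were higher and 11 lower in TG cultures, with a median log2 difference of 0.04 (0.02 over all well expressed genes), and of the dim members 9 were higher and 12 lower, with a median of -0.02 (-0.02 over dim genes). The balance of the dim members turned with the scaling, to 12 higher with quantile normalization again and 13 higher with each array centred on its median. In 0 members did TG and WT arrays not overlap, and this held for 0.382% of well expressed genes. The count of 2 members became 1 without TG replicate 1, 2 or 3 or WT replicate 2, 4 without TG replicate 4 or 6, and 7 without TG replicate 5.

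The same question was then put to serum-stimulated myocytes. Again none of the members passed, against 3 probe sets (0.00844%) in all. An unadjusted p under 0.05 was reached by 6 of the 34 well expressed members, against 13.0% of all well expressed genes, and by 0 of the 21 dim members, against 10.0% of dim genes. Higher in TG cultures were Pde7b, Akap13, Pde6d, Akap7 and Pde4d, and lower was Adcy4. Of the well expressed members 21 were higher and 13 lower, with a median log2 difference of 0.05 (0.02 over all well expressed genes), and of the dim members 6 were higher and 15 lower (median -0.04, as over all dim genes). With each of the other scalings 12 dim members were higher and 9 lower. TG and WT arrays did not overlap in 0 members and in 0.320% of well expressed genes. The count of 6 members became 12 without TG replicate 6 and 11 without WT replicate 2.

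**Figure D1:**
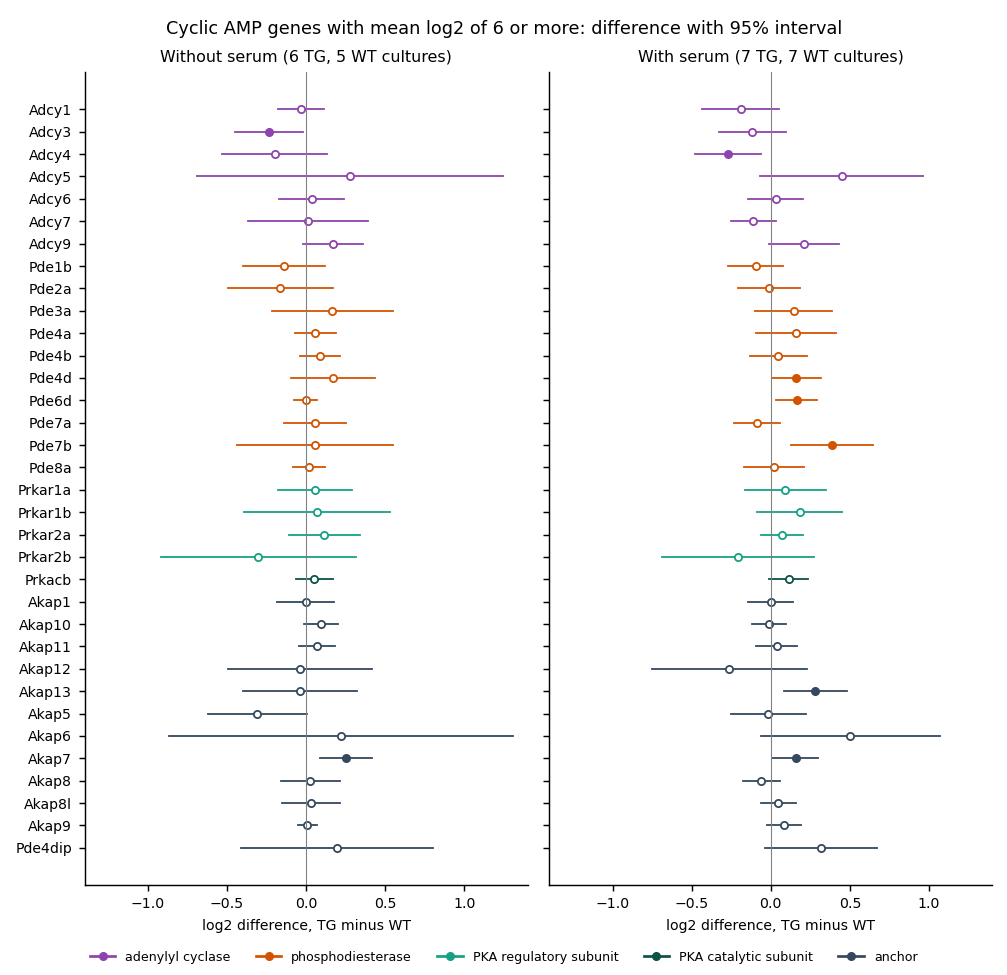
The log2 difference between TG and WT cultures (x axis) is plotted for each of the 34 well expressed members, without serum on the left and with serum on the right, with its 95% interval from limma. Filled points have an unadjusted p under 0.05, 2 without and 6 with serum, and none passed the adjusted test.

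Among the cyclases, which synthesize cyclic AMP, Adcy3 and Adcy4 had the lowest p. Adcy3, best known as the cyclase of olfactory cilia, had log2 intensities without serum of 6.82, 6.56, 6.46, 6.32 and 6.77 in the 5 WT arrays, and of 6.21 (lowest), 6.29 (median) and 6.54 (highest) in the 6 TG arrays. Of the TG arrays 4 lay below every WT array, and the other 2 inside the WT range. This gave a log2 difference of -0.24 (SE 0.099, limma adjusted p = 0.859). With serum it was -0.12 (SE 0.099), with values of 6.12 to 6.72 in TG and 6.28 to 6.84 in WT arrays.

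Adcy4, a cyclase stimulated by G protein βγ subunits, was measured with serum at 6.12 (lowest), 6.33 (median) and 6.50 (highest) in TG and at 6.33, 6.46 and 6.91 in WT arrays. The ranges met between 6.33 and 6.50, and the log2 difference was -0.27 (SE 0.097, limma adjusted p = 0.358). The highest values, 6.91 and 6.80, were those of WT replicates 3 and 4, which were lowest in the myocyte markers and highest in the endothelial markers (0.45 and 0.46 above the set's mean). With the myocyte marker mean as a covariate the difference was -0.16, and without the 3 serum cultures lowest in that mean it was -0.18. Without serum it was -0.20 (SE 0.15), and there too the highest array, TG replicate 5 at 6.27, was low in myocyte and high in endothelial markers.

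Adcy5 and Adcy6 are the calcium-inhibited cyclases that dominate in cardiac myocytes. Adcy6 was nearly level, at 9.12 ± 0.15 (SD, n = 7) in TG and 9.09 ± 0.15 (n = 7) in WT cultures with serum and at 8.98 ± 0.16 and 8.95 ± 0.18 without. The 95% interval of its difference reached from -0.14 to 0.21 with serum. Adcy5 was the more variable of the pair. With serum it ranged from 6.99 over a median of 8.30 to 8.44 in TG and from 7.01 over 7.58 to 8.05 in WT arrays, a log2 difference of 0.45 (SE 0.24, limma adjusted p = 0.520). Without serum the difference was 0.28 (SE 0.44).

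Adcy9, a widely expressed cyclase, was 0.17 (SE 0.087) higher in TG cultures without and 0.21 (SE 0.10) higher with serum, with limma adjusted p of 0.878 and 0.496. The relatives of Adcy4 within the βγ-stimulated group, Adcy7 and the dim Adcy2, and the calmodulin-stimulated Adcy1 had differences with serum of -0.11 (SE 0.067), -0.18 (SE 0.090) and -0.19 (SE 0.11). The study picked these genes and Adcy4 from these same samples, in a gene set lower in TG cultures, and their direction is thus no separate evidence. In all, 3 of the 7 well expressed cyclases were higher and 4 lower in TG cultures with serum, and the 3 dim ones, Adcy2, Adcy8 and Adcy10, were lower without passing the test.

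Among the genes named as phosphodiesterases, 7 of the 10 well expressed members were higher in TG cultures in either set. With serum 3 of them had an unadjusted p under 0.05, among them Pde6d, which encodes no enzyme. Of all 9676 well expressed genes, 5587 were higher without and 5383 with serum, and 13.0% had such a p with serum. Pde7b, a high-affinity enzyme specific for cyclic AMP, lay with serum at 6.63 (lowest), 7.17 (median) and 7.36 (highest) in TG and at 6.42, 6.76 and 7.10 in WT arrays. In TG cultures all but replicate 6 (6.63) and replicate 5 (7.01) were above every WT array. The genotypes differed by 0.39 (SE 0.12) on the log2 scale, or 1.31-fold, with a limma adjusted p of 0.327. It was 0.23 with the myocyte marker mean as a covariate and 0.06 (SE 0.22) in the cultures without serum.

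Pde4d, the cyclic AMP phosphodiesterase found with the ryanodine receptor and the β-adrenergic receptors, had with serum a lowest value of 7.55, a median of 7.70 and a highest of 7.99 in TG arrays and 7.47, 7.54 and 7.84 in WT arrays. The highest WT value, in replicate 2, stood apart from the other 6 at 7.47 to 7.57. The log2 difference of 0.16 (SE 0.072) had a limma adjusted p of 0.444, and without serum the difference was 0.17 (SE 0.12). Of its other probe sets, the one of mean log2 5.25 gave 0.18 and the one of 3.36 gave -0.12 with serum.

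Pde6d encodes no enzyme but the prenyl-binding protein that carries lipid-modified proteins between membranes. With serum its values were 8.89, 9.00 and 9.14 (lowest, median and highest) in TG and 8.68, 8.88 and 8.97 in WT arrays. The log2 difference was 0.16 (SE 0.060, limma adjusted p = 0.372), and it was 0.21 with the myocyte marker mean as a covariate. Without serum 5 of the 11 arrays held the same value of 9.06, the WT arrays were 9.06, 9.06, 9.08, 9.06 and 9.02, and the difference was -0.00 (SE 0.033). The change of the TG effect with serum, 0.17 (SE 0.073, limma adjusted p = 1.00), was the only one among the 55 members with an unadjusted p under 0.05, which 3.15% of all genes reached, and 0 members passed the adjusted test of this change. It was lost with a replicate block, and without TG no serum replicate 1 or WT serum replicate 6. This change was fitted on the deposited values of both sets, and a difference in spread between the sets does not cancel in it. The SD of Pde6d was 0.047 in TG and 0.021 in WT cultures without serum, and 0.098 and 0.10 with serum.

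Other phosphodiesterases with a known role in heart had no unadjusted p under 0.05 in either set. Pde3a, inhibited by cyclic GMP and the target of milrinone, stood at 7.76 ± 0.12 (SD, n = 7) in TG and 7.61 ± 0.29 (n = 7) in WT cultures with serum and at 7.06 ± 0.26 and 6.90 ± 0.38 without. Pde4a was at 6.81 ± 0.22 and 6.65 ± 0.24 with serum, and Pde4b, whose product is found at the L-type calcium channel, at 6.46 ± 0.11 and 6.41 ± 0.19. Pde2a, stimulated by cyclic GMP, was at 6.32 ± 0.086 and 6.33 ± 0.23. Pde8a, insensitive to most inhibitors, was at 6.18 ± 0.18 and 6.15 ± 0.16.

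The 14 dim phosphodiesterases held 5 that were higher and 9 that were lower in TG cultures with serum, with differences of -0.13 to 0.23, and 6 and 8 without serum, with differences of -0.11 to 0.09. The largest was that of Pde1c, a calmodulin-stimulated enzyme of heart, at 5.78 ± 0.29 (SD, n = 7) in TG and 5.55 ± 0.29 (n = 7) in WT cultures. Pde3b, which mediates the antilipolytic effect of insulin, was at 5.99 ± 0.093 and 5.85 ± 0.21, and Pde5a, the cyclic GMP enzyme inhibited by sildenafil, at 5.84 ± 0.23 and 5.97 ± 0.11. Pde1a was at 4.68 ± 0.17 and 4.63 ± 0.38.

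No subunit of protein kinase A had an unadjusted p under 0.05 in either set. Its regulatory subunit RIα, encoded by Prkar1a, was at 11.56 ± 0.24 (SD, n = 7) in TG and 11.47 ± 0.23 (n = 7) in WT cultures with serum, and at 10.91 ± 0.20 and 10.85 ± 0.17 without. RIIα, encoded by Prkar2a and the form bound by most anchors, was at 8.53 ± 0.13 and 8.46 ± 0.074 with serum. Prkacb, which encodes the catalytic subunit Cβ, was 0.11 (SE 0.057, limma adjusted p = 0.498) higher in TG cultures with and 0.05 (SE 0.052) higher without serum. Prkar1b had a difference of 0.18 (SE 0.13) with serum. Prkar2b, the RIIβ subunit, had the only negative differences among the subunits, -0.21 (SE 0.23) with and -0.30 (SE 0.28) without serum, and its arrays spread over 1.30 log2 units with serum and 1.57 without.

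Among the anchors, 8 of the 12 well expressed ones were higher in TG cultures without and 7 with serum. Of all 9676 well expressed genes, 5587 and 5383 were. Akap7, which tethers the kinase to the L-type calcium channel and to phospholamban, was the one member with an unadjusted p under 0.05 in both sets. Without serum its WT arrays held 5.99, 6.27, 6.10, 6.23 and 6.08, and its TG arrays 6.27 (lowest), 6.35 (median) and 6.60 (highest). The 3 lowest TG arrays and the highest WT array had exactly the same value, so no TG array was below a WT array. TG exceeded WT by 0.25 (SE 0.075) on the log2 scale, or 1.19-fold, with a limma adjusted p of 0.853. With serum the arrays overlapped, at 6.62, 6.84 and 7.02 in TG and 6.49, 6.65 and 6.81 in WT cultures, and the difference was 0.16 (SE 0.067, adjusted p = 0.430). Leaving out the 3 cultures lowest in the myocyte markers gave 0.34 without and 0.13 with serum, neither past the adjusted test.

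Akap13, or AKAP-Lbc, is an anchor that also activates the small GTPase RhoA and takes part in hypertrophic signaling. With serum it lay at 8.41 (lowest), 8.73 (median) and 8.98 (highest) in TG and at 8.28, 8.40 and 8.63 in WT arrays. The log2 difference was 0.28 (SE 0.093), or 1.22-fold, with a limma adjusted p of 0.342, and 0.17 with the myocyte covariate. Without serum TG and WT were at 7.98 ± 0.33 (SD, n = 6) and 8.02 ± 0.25 (n = 5), with a difference of -0.04 (SE 0.16). The change of the TG effect between the sets did not reach an unadjusted p under 0.05 for this gene.

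Akap5, which brings the kinase and calcineurin to the plasma membrane, leaned the other way without serum. Its WT arrays held 7.11, 7.20, 7.45, 7.60 and 7.01, and its TG arrays 6.62 (lowest), 6.98 (median) and 7.32 (highest). Of the 6 TG arrays 3 were below every WT array. The log2 difference was -0.31 (SE 0.14, limma adjusted p = 0.878) and shrank to -0.02 (SE 0.11) with serum.

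Akap6, or mAKAP, gathers the kinase, a phosphodiesterase and calcineurin at the nuclear envelope of myocytes. It had the widest spread of the well expressed members without serum, at 8.30 ± 1.01 (SD, n = 6) in TG and 8.08 ± 0.77 (n = 5) in WT cultures without serum and at 9.57 ± 0.51 (n = 7) and 9.07 ± 0.57 (n = 7) with serum. Its log2 difference with serum, 0.50 (SE 0.27, limma adjusted p = 0.514), was the largest of the 34 in size and became 0.10 with the myocyte covariate. That of Adcy5, 0.45, became 0.08. Without serum the covariate left a difference of 0.18 for Adcy5, with an SE of 0.060 (limma adjusted p = 0.548). The marker mean itself leaned with genotype, 14 of the 15 markers being higher in TG cultures with serum. Such a fit can therefore also take up part of a genotype difference.

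No other anchor had an unadjusted p under 0.05 in either set. Pde4dip was at 9.69 ± 0.34 (SD, n = 7) in TG and 9.37 ± 0.33 (n = 7) in WT cultures with serum, a log2 difference of 0.32 (SE 0.16, limma adjusted p = 0.509). Akap1, the anchor of the outer mitochondrial membrane, was at 8.02 ± 0.10 (SD, n = 7) in TG and 8.02 ± 0.12 (n = 7) in WT cultures with serum, and the 95% interval of its difference reached from -0.14 to 0.14. Akap9, or yotiao, which binds the potassium channel KCNQ1, was 0.08 (SE 0.050) higher with serum. Akap8, a nuclear matrix anchor, had a difference of -0.06 (SE 0.055). Akap12, or gravin, a scaffold of protein kinases A and C, was at 9.55 ± 0.37 and 9.81 ± 0.55 with serum, with a difference of -0.26 (SE 0.23).

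**Figure D2:**
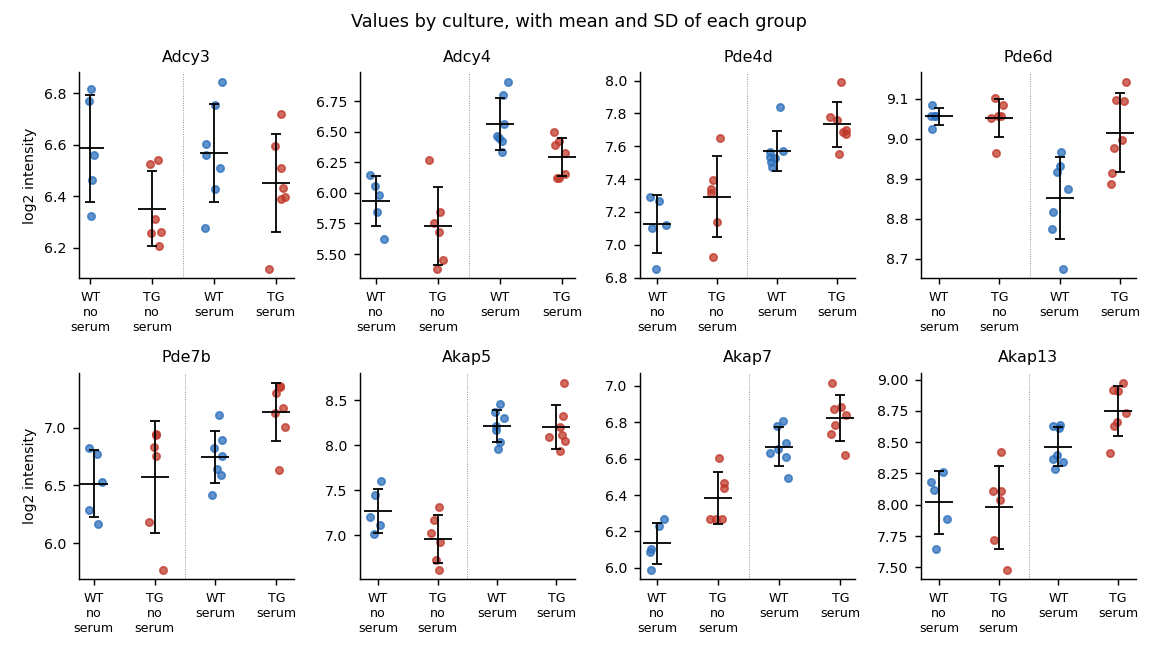
Log2 intensity (y axis) is plotted for each culture, WT in blue and TG in red, with black bars for the mean and SD of the 4 groups. The panels show the 7 members with an unadjusted p under 0.05 in either comparison of TG and WT, and Akap5, which was next without serum. In each panel the ranges of TG and WT meet or overlap within each set.

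Across the 34 well expressed members, 19 were higher and 9 lower in TG cultures in both sets, and 6 went opposite ways. These 2 comparisons share no arrays, but litters are not named, and the myocyte markers leaned the same way in both. The agreement may therefore not be an independent repeat. Opposite signs were found for 30.1% of all well expressed genes.

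Part of the spread within groups followed the myocyte markers. In 7 of the 34 well expressed members (Adcy5, Akap6, Akap13, Pde4dip, Prkar1a, Prkar1b and Prkar2a) the 3 lowest of the 11 arrays without serum were exactly the 3 lowest in the myocyte marker mean. This held for 10.5% of all well expressed genes. With serum it held for 9 (Adcy5, Adcy6, Akap6, Akap11, Pde4a, Pde4dip, Pde7b, Prkar1a and Prkar1b) and for 11.6% of genes. The cyclase Adcy5, the anchors Akap6 and Pde4dip and both RI subunits were on both lists.

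Akap6 had the widest range among these genes. Without serum the 3 cultures stood at 6.77, 6.75 and 7.34 and the other 8 at 8.12 to 9.28. With serum they stood at 8.34, 8.28 and 8.54 and the other 11 at 9.03 to 10.01. In both sets the 3 cultures, of either genotype, were apart from the rest.

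Adcy5 followed the same order, at 6.23, 6.18 and 6.72 against 7.43 to 8.47 without serum and at 7.01, 7.01 and 6.99 against 7.53 to 8.44 with serum. For Prkar1a, the values were 10.68, 10.59 and 10.65 against 10.85 to 11.11 without serum, and 11.18, 11.19 and 11.07 against 11.43 to 11.77 with serum. Both genes were thus lowest in the cultures of either genotype that were lowest in the myocyte marker mean.

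Akap12 and Prkar2b ran the other way with serum. Akap12 stood at 10.47, 10.36 and 10.21 in these 3 cultures and at 9.10 to 10.03 in the other 11, and Prkar2b at 7.96, 7.89 and 7.94 against 6.66 to 7.78. In 9.71% of well expressed genes the 3 highest arrays with serum were these. Without serum this held for 0 of the 34 members and for 9.24% of genes, and Akap12 was at 9.03, 8.81 and 8.74 in the 3 cultures and at 8.02 to 9.01 in the others. Among the dim members, Pde1c was lowest and the calmodulin-stimulated cyclase Adcy8 highest in these cultures with serum, and Pde5a highest without.

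**Figure D3:**
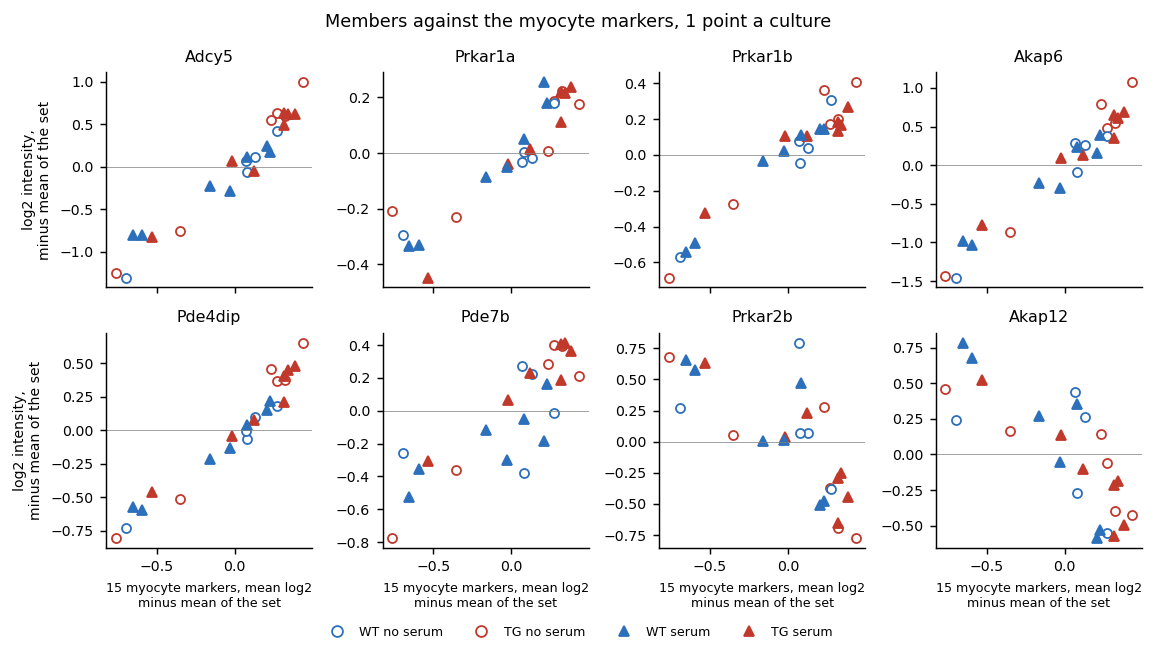
Each point is 1 culture, with the mean log2 value of 15 myocyte markers on the x axis and the log2 intensity of a member on the y axis, both minus the mean of the set. The 8 members were chosen after their values were seen. WT is blue and TG red, open circles are without and filled triangles with serum. The cultures lowest in the markers, at the left, were lowest in Adcy5, Prkar1a, Prkar1b, Akap6 and Pde4dip in both sets, and those with serum were lowest in Pde7b and highest in Prkar2b and Akap12.

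The markers also leaned with genotype. With serum 14 of the 15 myocyte markers were higher in TG cultures (median log2 difference 0.29, 1 with an unadjusted p under 0.05 and 0 past the adjusted test), and the marker mean ranged from 11.15 to 12.06 in TG and from 11.03 to 11.91 in WT cultures. Of the 16 endothelial markers 15 were lower (median -0.19, 3 with an unadjusted p under 0.05), with a mean of 5.67 to 6.41 in TG and 5.85 to 6.52 in WT cultures, and 11 of the 16 had a mean log2 under 6. Lower too were 7 of 11 epicardial markers (3 with an unadjusted p under 0.05) and 8 of 12 fibroblast markers, while 9 of 13 macrophage and 5 of 9 smooth muscle markers were higher. Over all genes with serum, 5383 of 9676 well expressed ones were higher and 6760 of 10262 dim ones lower. An unadjusted p under 0.05 was reached by 13.0% of the well expressed and 10.0% of the dim genes. Without serum 12 of 15 myocyte markers were higher (median 0.07), while 12 of 13 macrophage (median -0.16), 10 of 12 fibroblast, 9 of 11 epicardial (median -0.16) and 12 of 16 endothelial markers were lower. Here 5587 of 9676 well expressed genes were higher and 6832 of 10262 dim genes lower. Only 5 of the 13 macrophage markers were well expressed. When the 3 low cultures of each set were left out, 8 members in either set had an unadjusted p under 0.05 (10.1% and 10.6% of all genes), and the smallest adjusted p among the members was 0.194. Without serum these were Pde4dip (0.41), Akap7 (0.34), Adcy5 (0.56), Prkar2a (0.22), Adcy9 (0.28), Akap6 (0.51), Akap5 (-0.47) and Pde4d (0.23). With serum they were Pde7b (0.37), Akap13 (0.28), Pde6d (0.17), Adcy5 (0.39), Akap6 (0.37), Prkacb (0.13), Akap9 (0.12) and Adcy4 (-0.18). With the myocyte marker mean as a covariate, 5 members in either set had an unadjusted p under 0.05 (7.22% and 12.3% of all genes). With the endothelial marker mean as a covariate, 2 members without and 4 with serum had such a p (5.10% and 11.9% of all genes). In these fits the well expressed members were 18 higher and 16 lower without serum and 22 higher and 12 lower with serum, and the difference of Adcy4 was -0.12 without and -0.14 with serum (limma adjusted p = 0.870 and 0.425).

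Around the members, the pathway was read from lists of receptors, G proteins, effectors and targets. No gene of these lists passed the adjusted test in either comparison of TG and WT. Of 21 measured receptors coupled to Gs, 17 were lower in TG cultures without serum (median log2 difference -0.03) and 18 with serum (median -0.13), 4 of these with an unadjusted p under 0.05. They were Adcyap1r1, the receptor of PACAP (-0.30, limma adjusted p = 0.242), Vipr1, a receptor of vasoactive intestinal peptide (-0.21), Crhr1 (-0.20) and Gcgr, the glucagon receptor (-0.17). Only 4 of the 21 had a mean log2 of 6 or more, and of all 10262 dim genes 6760 were lower in TG cultures with serum and 10.0% had an unadjusted p under 0.05. The study names Adcyap1r1, Crhr1, and from the next lists Gabbr1 and Gnal, in the gene set mentioned above, and the same limit holds for them.

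Of 15 receptors coupled to Gi, 6 were higher and 9 lower with serum. Chrm2, the muscarinic receptor of the heart, was 0.54 higher in TG cultures, at 9.69 ± 0.52 (SD, n = 7) against 9.15 ± 0.44 (n = 7), with a limma adjusted p of 0.435. Gabbr1 (-0.14) and Adra2c (-0.15) were lower. Of 21 G protein subunits and regulators 8 were higher and 13 lower, and Gnal, the olfactory relative of Gs, was the one with an unadjusted p under 0.05 (-0.24). All 6 measured receptor kinases and arrestins were higher (median 0.08), the cardiac kinase Grk5 by 0.14. Well expressed were 4 of the 15 receptors, 14 of the 21 G protein genes and 4 of the 6 kinases and arrestins. Over all genes, 5383 of 9676 well expressed ones were higher with serum and 13.0% had an unadjusted p under 0.05. For dim genes these shares were 3502 of 10262 and 10.0%.

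Downstream, 9 of 16 other effectors and inhibitors were higher with serum. Pkig, an inhibitor peptide of protein kinase A, was at 7.69 ± 0.27 (SD, n = 7) in TG and 7.17 ± 0.29 (n = 7) in WT cultures, a log2 difference of 0.52 (limma adjusted p = 0.300). Prkg1, the cyclic GMP kinase, was 0.21 higher, and Rapgef3, or Epac1, had a difference of -0.27. Of the 5 genes of cyclic GMP synthesis 4 were lower, Gucy2e with a difference of -0.14. Well expressed were 9 of the 16 effectors and inhibitors and 2 of these 5 genes. Over all genes with serum, 5383 of 9676 well expressed ones were higher and 6760 of 10262 dim ones lower.

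The CREB factors and coactivators held 10 higher and 4 lower of 14 with serum (median 0.04), none with an unadjusted p under 0.05. All but 1 of the 14 were well expressed, and 5383 of all 9676 well expressed genes were higher (median 0.02). Of 18 measured CREB target genes 7 were higher and 11 lower. Sst (-0.32, limma adjusted p = 0.164), Nr4a1 (-0.23), Nr4a3 (-0.32) and Fosb (-0.40) were lower with an unadjusted p under 0.05. Ppargc1a, the coactivator of mitochondrial genes, was the 1 target higher with an unadjusted p under 0.05, by 0.38. Of the 18 targets 11 were well expressed, and 13.0% of all well expressed and 10.0% of all dim genes had such a p.

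Among 15 substrates and partners of the kinase in heart, 14 were higher in TG cultures in both sets, with a median log2 difference of 0.10 without and 0.41 with serum. Over all 9676 well expressed genes, 5587 were higher without and 5383 with serum. With serum Ppp1r3a, a glycogen-bound phosphatase subunit (0.46, limma adjusted p = 0.358), Fxyd1, or phospholemman (0.56), Rrad (0.32) and Ppp1r1a (0.16) had an unadjusted p under 0.05, as did the calcium channel subunit Cacnb2 on the lower side (-0.16). These are 5 of 15 genes, of which 14 were well expressed, against 13.0% of all well expressed genes. The list shares Tnni3, Mybpc3, Atp2a2, Ryr2 and Pln with the myocyte markers, which leaned the same way.

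The last question was how the members stood in the cultures with and without serum. For this the 25 arrays were quantile normalized again, and the values below are on that scale. In WT cultures 36 of the 55 members passed the adjusted test, 8 higher and 11 lower of the 34 well expressed ones, where 55.3% of all such genes passed, and 4 higher and 13 lower of the 21 dim ones, where 65.9% passed. In TG cultures 35 passed, 7 higher and 11 lower among the well expressed (56.8% of genes) and 5 higher and 12 lower among the dim (68.3%). These counts compare 2 sets of arrays, which differ in scale as well as in serum. As deposited, the median of all probe sets was 0.12 higher with serum in WT and 0.11 in TG cultures, and it was -0.13 and -0.12 after every array was centred on its own median.

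Called in the same direction under all 3 scalings and in both genotypes were 6 well expressed members, 17.6% of them against 29.3% of all such genes, and 13 dim members, 61.9% against 38.8%. The 6 were Akap1, lower with serum, and Adcy7, Akap5, Akap8, Prkar1b and Prkar2a, higher with serum. Of the 13 dim members 10 were lower and 3, Adcy8, Akap17b and Pde6g, higher. All genes called in this way leaned likewise. Among the well expressed ones 2541 were higher and 294 lower, and among the dim ones 1429 were higher and 2556 lower. Only quantile normalization evens out the difference in spread between the sets, so calls under all 3 scalings do not remove it.

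Akap1 had values with serum of 7.66 (lowest), 7.83 (median) and 8.05 (highest) in WT and 7.63, 7.84 and 7.94 in TG arrays, and without serum of 8.40, 8.67 and 8.77 in WT and 8.43, 8.66 and 8.78 in TG arrays. Every array with serum lay below every array without. The log2 difference was -0.80 (SE 0.076, limma adjusted p = 3.8e-09) in WT and -0.79 (SE 0.072, adjusted p = 1.58e-09) in TG cultures. As deposited it was -0.34 in both genotypes.

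Akap5 lay with serum at 7.76, 8.00 and 8.27 in WT and 7.74, 7.90 and 8.47 in TG arrays, and without serum at 7.23, 7.46 and 7.85 and at 6.86, 7.19 and 7.53. The ranges overlapped in WT and were apart in TG cultures. The difference was 0.51 (SE 0.13, limma adjusted p = 0.00165) in WT and 0.80 (SE 0.12, adjusted p = 5.61e-06) in TG cultures, and the change between genotypes was not past the test.

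All 4 regulatory subunits had positive differences in both genotypes, and Prkar2a and Prkar1b passed the test. Prkar2a rose from 7.83 (median of WT arrays without serum, range 7.72 to 7.94) to 8.23 (range 8.19 to 8.39), a difference of 0.43 (SE 0.082, limma adjusted p = 7.63e-05), and by 0.38 (SE 0.078) in TG cultures. Prkar1b was 0.43 (SE 0.18, adjusted p = 0.0420) and 0.53 (SE 0.17, adjusted p = 0.00982) higher. Adcy7, a cyclase of many non-muscle cells, was 0.44 (SE 0.13) and 0.29 (SE 0.13) higher, with adjusted p of 0.00631 and 0.0485. Without the 6 cultures lowest in the myocyte markers Adcy7 no longer passed, at 0.27 in WT and 0.15 in TG cultures. Prkar1b in WT cultures did not pass in 8 of the 12 runs that left out 1 array, nor did Adcy7 in TG cultures in 11 of 13.

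Other differences depended on the scale. Pde6d was -0.70 and -0.52 in WT and TG cultures, Akap11, an anchor that also binds glycogen synthase kinase 3, -0.54 and -0.56, Pde2a -0.58 and -0.42 and Adcy3 -0.40 and -0.28, all past the test in limma on this scale. As deposited these became -0.20 and -0.04, -0.05 and -0.08, -0.20 and -0.05, and -0.02 and 0.10. Akap12 was 0.72 (SE 0.24, limma adjusted p = 0.0121) higher in WT and 0.51 (SE 0.23, adjusted p = 0.0538) in TG cultures, and without WT no serum replicate 4 the WT value was 0.57 (adjusted p = 0.0520). Adcy8 had the largest difference among the dim members, 1.29 in WT and 1.15 in TG cultures. Adcy5, Prkar1a, Pde3a, Pde4b, Pde4d and Pde8a did not pass in either genotype on this scale, with differences of -0.16 to 0.32. These depended on the scale too. As deposited, Prkar1a was 0.62 higher in WT and 0.65 in TG cultures, Pde3a 0.72 and 0.70, and Pde4b 0.45 and 0.41. Pde4d was 0.45 and 0.44 higher, Pde8a 0.37 and 0.37, and Adcy5 0.26 and 0.43.

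**Figure D4:**
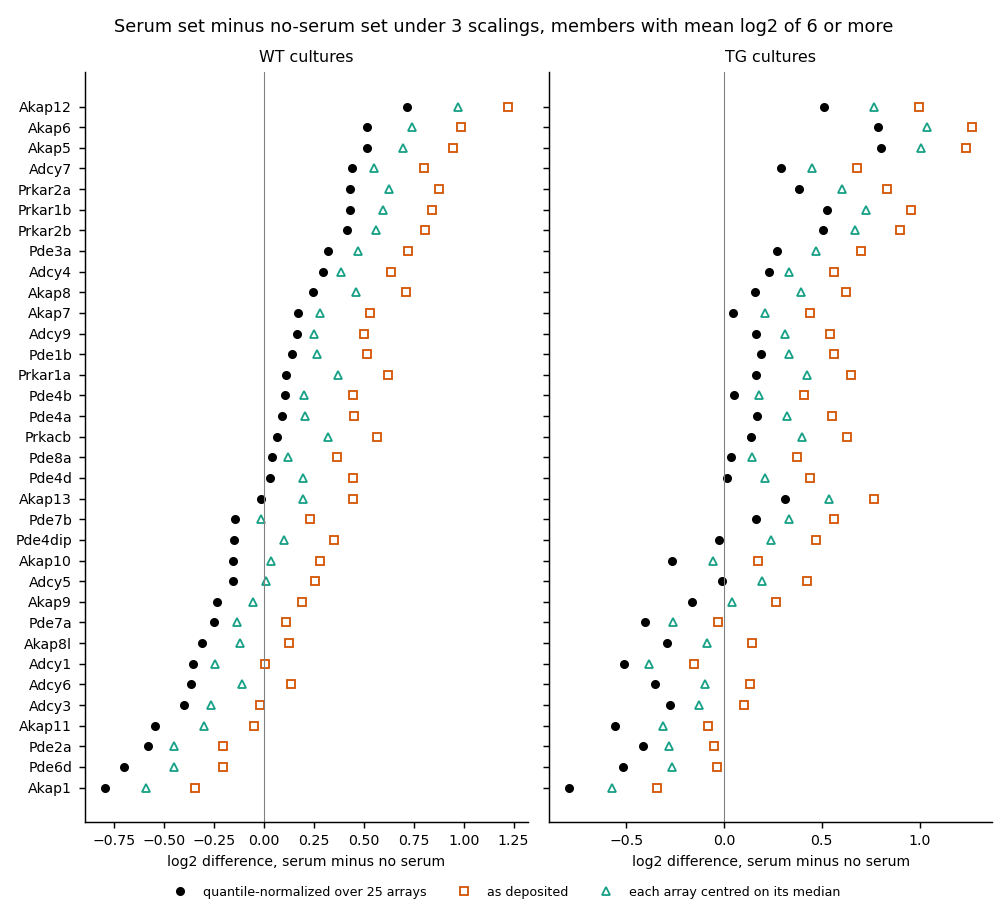
The log2 difference between cultures with and without serum (x axis) is plotted for the 34 well expressed members in WT (left) and TG (right) cultures under 3 scalings, black for quantile normalization over the 25 arrays, orange for the deposited values and green for arrays centred on their medians. The deposited values put every member higher than quantile normalization does, and Akap1 was below 0 and Akap5 above 0 under all 3.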

How the data were processed

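RNA of 25 cultures was hybridized to Affymetrix Mouse Gene 1.0 ST arrays, 1 array each. Per the labels and methods, the authors summarized the arrays by Robust Multichip Analysis (RMA) in Affymetrix Expression Console 1.1, and the deposited values are normalized log2 intensities of 35557 probe sets. Neither source says whether arrays with and without serum were normalized together. No column was left out (0 of unknown sample). Array intensities have no counting depth, and the number of arrays limits the precision. GEO's platform annotation gave 1 symbol to 21789 probe sets, several to 1621 and none to 12147. A gene with several probe sets was represented by the brightest on average, and all 55 members matched RefSeq.

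The deposited values were fitted with limma 3.58.1 (lmFit and eBayes, a mean for every group) in R 4.3.3, TG against WT separately with and without serum, and the change of the TG effect over all 25 arrays. An offset of a whole set cancels in that change, but a difference in spread between the sets does not. Serum was compared after quantile normalization over the 25 arrays. All tests were two-sided, with Benjamini-Hochberg adjustment over all probe sets and calls at 0.05. Alternatives were array weights, other scalings, a filter on dim probe sets, a replicate block, marker covariates and leaving out each array. Every member could be named. Full values were given for the 6 of smallest p in each comparison of TG and WT (Pde6h and Akap10 by their statistics only), the 5 of largest serum difference in each direction in WT among well expressed members past the test with the same sign in TG, and members with a textbook role in heart, and pathway lists by up to 4 genes of smallest p with serum (Ppargc1a and Ppp1r1a lie outside this rule and were chosen with their values in view). The members and lists were chosen with earlier results of these data known. The fits were tested on simulated data with known changes. That check required changes to be found only at the largest size used, above every difference between TG and WT among the members. It gives no power for differences as small as theirs.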

Additional observations from a re-analysis of the deposited data

Results flagged for a closer look

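Of 72 groups of 5 to 7 arrays tested, 5 held an array far from the others by Dixon's criterion, which chance alone would give in about 1 of 20 groups. Pde6h, a cone photoreceptor subunit, was 4.44 in TG no serum replicate 1 and 4.59 to 4.62 in the other 5 arrays, and Pde6d was 8.96 there against 9.05 to 9.10. Pde4d was 7.84 in WT serum replicate 2 against 7.47 to 7.57, and without this array 11 members rather than 6 had an unadjusted p under 0.05 with serum. Adcy7 was 6.67 in TG serum replicate 7 against 6.83 to 6.94. Prkar1b was 7.74 in TG serum replicate 6 against 8.17 to 8.33, and this culture was also the lowest TG culture with serum in the myocyte markers.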

How the results depend on the processing

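No member passed the adjusted test of TG against WT, or of the change of the TG effect, under any alternative run, leaving out each array included. At an unadjusted p under 0.05 without serum there were 2 members, 4 with array weights, 8 without the 3 cultures lowest in the myocyte markers and 5 with the myocyte marker mean as a covariate (the last 2 chosen after seeing the data), and 1 to 7 when 1 array was left out. With serum there were 6, 12 with each array centred on its median, 12 with array weights, and 4 to 12 when 1 array was left out. For the change of the TG effect there was 1, and 0 to 2 when 1 array was left out. Of the serum contrasts, 36 members in WT and 35 in TG cultures passed, 22 in TG cultures when probe sets with a mean log2 under 5 were left out, as fewer members were then tested, and 32 to 35 and 32 to 36 when 1 array was left out. Adcy3 in TG cultures reversed with the deposited values (0.10). Adcy7 in TG cultures lost its call in 11 of 13 runs that left out 1 array, and its value ran from 0.20 to 0.41. Prkar1b in WT cultures lost its call in 8 of 12 such runs, from 0.29 to 0.52. The cause was not tested.

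Culture numbers in the labels are not known to mark shared cultures, and the study's figure legend numbers the cultures without serum differently, so the same number with and without serum, or in TG and WT cultures without serum, need not be the same in the study. The reported differences are unpaired. Correlations of same-number deviations were -0.45 to 0.15 between TG and WT without serum, -0.36 to 0.06 with serum, and -0.24 to 0.19 between cultures with and without serum. With the replicate block 3 members without and 5 with serum had an unadjusted p under 0.05, 0 for the change of the TG effect, and 35 in WT and 32 in TG cultures passed the serum contrast. Prkar1b in WT (0.36, limma adjusted p = 0.197) and Adcy7 in TG cultures (0.32, adjusted p = 0.0632) did not pass with it.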

Other observations

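Pde6h, which was among the 6 members of smallest p without serum, had a log2 difference of -0.08 (SE 0.040) and Akap10, an anchor that binds both RI and RII subunits, one of 0.10 (SE 0.049), each with a limma adjusted p of 0.878. Of the 55 members, 25 held at least 1 exact tie among the 11 arrays without serum and 2 among the 14 with serum. The tied value was shared by 7 arrays for Pde11a, by 6 for Akap4 and Akap9 and by 4 for Akap7.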
